A study of Mus musculus with 8 samples.

Results

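The CDC25 phosphatases and the regulators of the anaphase-promoting complex (APC/C) were followed as 10 genes, of 47643 in the deposited tables: the APC/C activators Cdc20 and Fzr1, its ubiquitin-conjugating enzymes Ube2c and Ube2s, its inhibitor Fbxo5, the securin gene Pttg1 and the separase gene Espl1, and Cdc25a, Cdc25b and Cdc25c. They were chosen by symbol, and all 10 were found. RNA was taken from peritoneal macrophages of C57 BL/6 mice. In 4 libraries the macrophages were treated with 10 nM B/B Homodimerizer alone (MΦ+Dimerizer). In the other 4 they shared a well with NIH 3T3 FV-hCasp8 cells, which the same 10 nM dimerizer makes apoptotic (MΦ+FV-Casp8+Dimerizer). NIH 3T3 is a mouse fibroblast line, and its FV-hCasp8 cells carry a caspase-8 that becomes active when the dimerizer joins it in pairs. Macrophages and fibroblasts were separated by a transwell membrane with pores of 5 µm, and RNA was isolated 48 h after the dimerizer. The paper describes the replicates as macrophages of individual animals. Macrophages with living fibroblasts were not analysed here, so contact with the fibroblasts and with their death cannot be told apart. The FV-hCasp8 fibroblasts were grown from single clones, and the co-culture columns carry the name 3D10, which the labels do not explain.

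CDC25 phosphatases remove inhibitory phosphates from cyclin-dependent kinases and so open the way into S phase and mitosis. The APC/C is a ubiquitin ligase that ends mitosis: with CDC20 it marks securin and B-type cyclins for destruction, which frees separase to cut the cohesin rings that hold sister chromatids together. With FZR1 (CDH1) it stays active through G1 and keeps mitotic proteins low, and FBXO5 (EMI1) blocks it when cells enter S phase. Tissue macrophages are mostly quiescent and can divide locally.

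Of the 10 genes, 8 were higher with apoptotic cells, none was lower among those tested, 1 (Ube2s) did not pass and 1 (Cdc25c) was too low to be tested with the others. Ube2c, Cdc25b, Fbxo5, Espl1 and Cdc20 at least doubled, with log2 fold changes from 1.11 to 2.23. Cdc25a rose by 0.74, and Fzr1 and Pttg1 rose by 0.44 and 0.34. Values are normalized counts, that is reads divided by a size factor of the library. Fold changes were computed after adding 1 to each normalized count and taking log2, so those of low genes are understated. limma was run on the 12029 genes averaging at least 10 normalized counts, with Benjamini-Hochberg adjustment and a threshold of 0.05. By this rule 15.0% of all genes tested were higher and 13.7% were lower (28.7% in either direction). A log2 fold change of at least 1 with a passing test was found for 3.97% of genes tested and for 5 of the 9 genes tested here. The median log2 fold change was 1.11 over these 9 genes and 0.01 over all genes tested. In bulk RNA, a larger share of cells that express a gene and more RNA per cell cannot be told apart.

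Promoter sequences are shown because the sizes of the rises differed, and cell cycle promoters are known to carry short shared elements. The CHR element (TTTGAA or TTCGAA) is bound in other cell cycle genes by the DREAM and MuvB complexes, the CCAAT box by NF-Y, and the E2F site by E2F factors. RefSeq promoters (GRCm38.p6, 250 bases before to 50 after the annotated start) were matched by symbol for 9 of the 10 genes. Printed 5′ to 3′ on the strand of the gene are the 170 bases before and the 20 bases after the start. Capitals mark CHR and CCAAT on either strand (TTCAAA and ATTGG are their reverse complements, and TTCGAA is its own). The first 5 sequences belong to the genes with a log2 fold change of at least 1, and the last 2 to an activator that rose less and to the gene that did not pass.
Ube2c (chr2:164769759-164769948, plus strand): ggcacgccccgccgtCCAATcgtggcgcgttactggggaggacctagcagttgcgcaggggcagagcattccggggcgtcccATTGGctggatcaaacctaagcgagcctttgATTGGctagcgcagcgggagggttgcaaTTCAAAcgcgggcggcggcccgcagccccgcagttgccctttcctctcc
Cdc25b (chr2:131186778-131186967, plus strand): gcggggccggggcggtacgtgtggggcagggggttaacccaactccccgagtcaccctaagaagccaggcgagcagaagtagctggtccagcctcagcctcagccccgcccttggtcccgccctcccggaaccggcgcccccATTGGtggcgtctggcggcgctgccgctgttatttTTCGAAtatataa
Fbxo5 (chr10:5805446-5805635, minus strand): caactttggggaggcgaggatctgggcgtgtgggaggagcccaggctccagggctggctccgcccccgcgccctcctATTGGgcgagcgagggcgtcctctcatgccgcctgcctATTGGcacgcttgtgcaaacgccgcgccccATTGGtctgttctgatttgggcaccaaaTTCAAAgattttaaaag
Espl1 (chr15:102296123-102296312, plus strand): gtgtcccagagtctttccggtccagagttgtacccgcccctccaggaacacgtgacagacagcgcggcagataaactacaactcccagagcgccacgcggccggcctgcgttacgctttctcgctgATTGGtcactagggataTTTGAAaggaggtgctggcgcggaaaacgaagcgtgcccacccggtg
Cdc20 (chr4:118437324-118437513, minus strand): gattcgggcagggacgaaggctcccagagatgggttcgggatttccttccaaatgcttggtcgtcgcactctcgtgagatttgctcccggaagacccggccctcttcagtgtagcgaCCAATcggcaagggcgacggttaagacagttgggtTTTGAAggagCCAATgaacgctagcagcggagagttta
Fzr1 (chr10:81378351-81378540, minus strand): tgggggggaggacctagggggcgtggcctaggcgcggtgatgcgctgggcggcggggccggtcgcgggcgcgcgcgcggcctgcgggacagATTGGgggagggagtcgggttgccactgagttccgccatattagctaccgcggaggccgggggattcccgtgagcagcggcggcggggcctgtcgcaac
Ube2s (chr7:4812321-4812510, minus strand): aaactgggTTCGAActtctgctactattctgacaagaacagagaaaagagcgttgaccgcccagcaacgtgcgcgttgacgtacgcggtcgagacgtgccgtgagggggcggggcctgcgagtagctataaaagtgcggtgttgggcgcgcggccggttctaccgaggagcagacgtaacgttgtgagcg

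All 5 genes that passed with a log2 fold change of at least 1 had both a CHR and a CCAAT box in the 300 bases. None of the other 4 searched had both, and Cdc25c was not searched. Of the 32851 RefSeq promoters of the same length, 7.52% had both, 19.2% had a CHR and 37.4% a CCAAT box. In Cdc20 the CHR lay at positions -18 to -13, in Espl1 at -27 to -22 and in Ube2c, on the reverse strand, at -29 to -24, with the annotated start as +1. In Fbxo5 and Cdc25b it followed the start, at +4 to +9 and +8 to +13. Cdc25b and Ube2s had the rarer form TTCGAA, found in 1.56% of promoters. In Ube2s it lay far from the start, at -162 to -157, with no CCAAT box in the window. Cdc25a had CCAAT boxes and the only E2F match of the 9, TTTGGCGC at -67 to -60. Any of the 4 E2F forms searched (TTTGGCGC, TTTCGCGC, TTTGGCGG and TTTCCCGC) was found in 2.37% of promoters. Fzr1 had a CCAAT box alone, and in Pttg1 none of these letters was found. The RefSeq starts of Pttg1 and Ube2s lie inside their GENCODE M21 genes. Their 300 bases therefore hold no sequence before the 5′ ends of those genes, which was not searched. These matches are descriptions of the sequence. The motifs and the fold changes were set side by side with the results known, and no test was made.

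**Figure D1:**
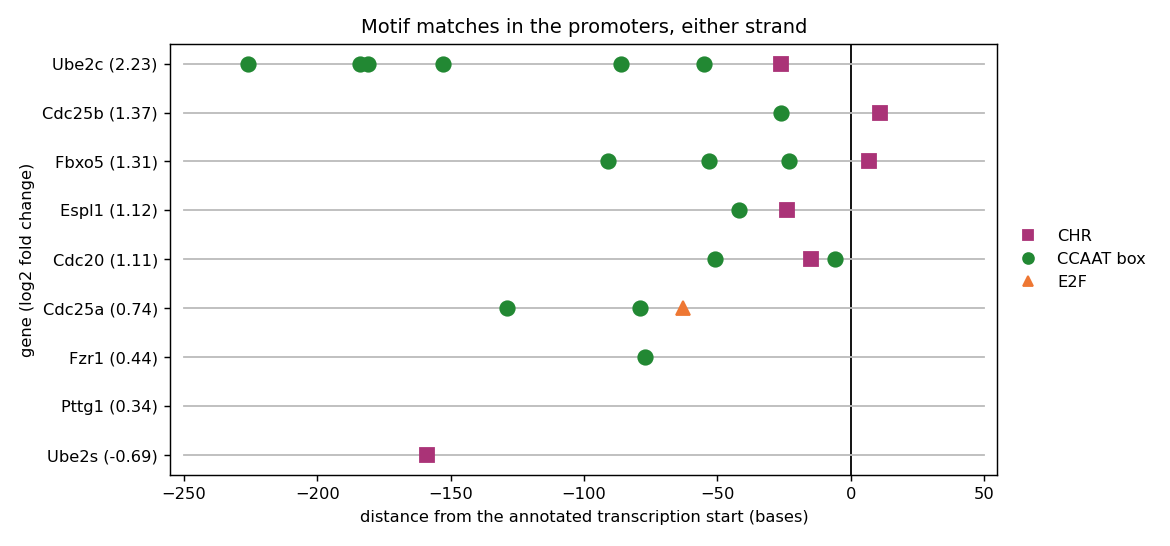
Matches to the CHR element, the CCAAT box and the E2F site in the promoters of 9 genes, placed by distance in bases from the annotated transcription start (vertical line, either strand) and ordered by log2 fold change (in brackets after each name). The 5 uppermost genes have a CHR and a CCAAT box, and in each the CHR lies near the start.

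CDC20 is the mitotic activator of the APC/C and the target of the spindle checkpoint. Cdc20 (ENSMUSG00000006398, chr4:118432901-118437352, minus strand, GRCm38 with GENCODE M21) had 79.7, 63.2, 70.4 and 86.5 normalized counts in the MΦ+Dimerizer libraries of replicates 1 to 4, and 114.9, 245.6, 160.7 and 150.4 with apoptotic cells. The groups did not overlap, and the library of replicate 2 with apoptotic cells stood above its group. The mean rose from 74.9 ± 10.2 to 168 ± 55.4 (SD, n = 4), a log2 fold change of 1.11 (SE 0.20, adjusted p = 0.000904). Its last bases overlap the end of Elovl1 on the other strand, which had 581 and 516 normalized counts. The sources used here do not say whether the counting used strand, so reads at such overlaps cannot be assigned to either gene with certainty.

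FZR1 is the activator that holds the APC/C active in G1 and in quiescent cells. Fzr1 (ENSMUSG00000020235, chr10:81366222-81378516, minus strand) had 191.0, 223.1, 182.4 and 214.2 normalized counts with dimerizer alone and 230.8, 348.4, 262.5 and 266.3 with apoptotic cells. The lowest library with apoptotic cells was only 7.71 normalized counts above the highest without. The mean went from 203 ± 19.1 to 277 ± 50.2, with a log2 fold change of 0.44 (SE 0.12, adjusted p = 0.0184). Fzr1 is the member whose rise was least secure. It did not pass without the MΦ+Dimerizer library of replicate 1 (0.41, adjusted p = 0.0537) or replicate 3 (0.39, adjusted p = 0.0521). Its end touches that of Mfsd12 on the other strand, which went the other way (1535 and 641 normalized counts).

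Of the activators, Cdc20 rose more than Fzr1. The log2 ratio of Cdc20 to Fzr1 was -1.43 ± 0.25 with dimerizer alone and -0.76 ± 0.21 with apoptotic cells, a difference of 0.67 with no overlap. Ratios of 6 pairs of members were compared with exact permutation tests, two-sided, of the 70 ways to divide the libraries, and adjusted over the 6. The smallest p this design can give is 0.0286, and the Cdc20 to Fzr1 ratio reached it (adjusted p = 0.0429). This ratio and the 3 others that passed (Fbxo5/Fzr1, Ube2c/Ube2s and Cdc25a/Cdc25b) did not pass without the MΦ+Dimerizer library of replicate 2, with adjusted p of 0.0571 to 0.0686. Without that library the groups still did not overlap in any of these ratios.

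FBXO5 inhibits the APC/C at the start of S phase, and its rise was about as large as that of Cdc25b. Fbxo5 (ENSMUSG00000019773, chr10:5799160-5805600, minus strand) had 52.2, 55.5, 57.4 and 61.9 normalized counts with dimerizer alone and 109.1, 202.8, 157.7 and 116.7 with apoptotic cells. No library of the control group came near the lowest of the other. The mean rose from 56.7 ± 4.05 to 147 ± 43.1 (log2 fold change 1.31, SE 0.18, adjusted p = 0.000133). Measured against Fzr1, the activator it restrains, Fbxo5 gained 0.87 on the log2 scale (exact permutation p = 0.0286, adjusted p = 0.0429), again with no overlap.

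UBE2C starts the ubiquitin chains that the APC/C builds, and UBE2S extends them. The counts of this pair did not move together, though those of Ube2s were low. Ube2c (ENSMUSG00000001403, chr2:164769898-164778822, plus strand) had 55, 49.0, 33.3 and 49.1 normalized counts with dimerizer alone and 145.9, 333.4, 239.1 and 196.2 with apoptotic cells. This was the largest change of the 10 genes. The mean rose from 46.6 ± 9.28 to 229 ± 79.6, a log2 fold change of 2.23 (SE 0.23, adjusted p = 1.15e-05), and every library with apoptotic cells was at least 90.9 normalized counts above every control. Tnnc2, which overlaps its end on the other strand, had 0 and 0.169 normalized counts. Ube2s (ENSMUSG00000060860, chr7:4794546-4812590, minus strand) had 15.1, 14.2, 21.3 and 21.6 normalized counts with dimerizer alone and 6.9, 8.3, 16.3 and 13.5 with apoptotic cells. The groups overlapped. The means were 18.1 ± 3.95 and 11.2 ± 4.40, with a log2 fold change of -0.69 whose 95% interval ran from -1.39 to 0.01 (adjusted p = 0.134). A rise of the size seen for any of the other 9 genes lies outside this interval, while a fall as large as -1.39 does not.

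The counts of Ube2s rest on 6 to 23 reads per library. Its end lies within Rpl28 on the other strand, with 453 and 425 normalized counts. The log2 ratio of Ube2c to Ube2s was 1.32 ± 0.55 with dimerizer alone and 4.24 ± 0.66 with apoptotic cells (difference 2.92, exact permutation p = 0.0286, adjusted p = 0.0429).

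**Figure D2:**
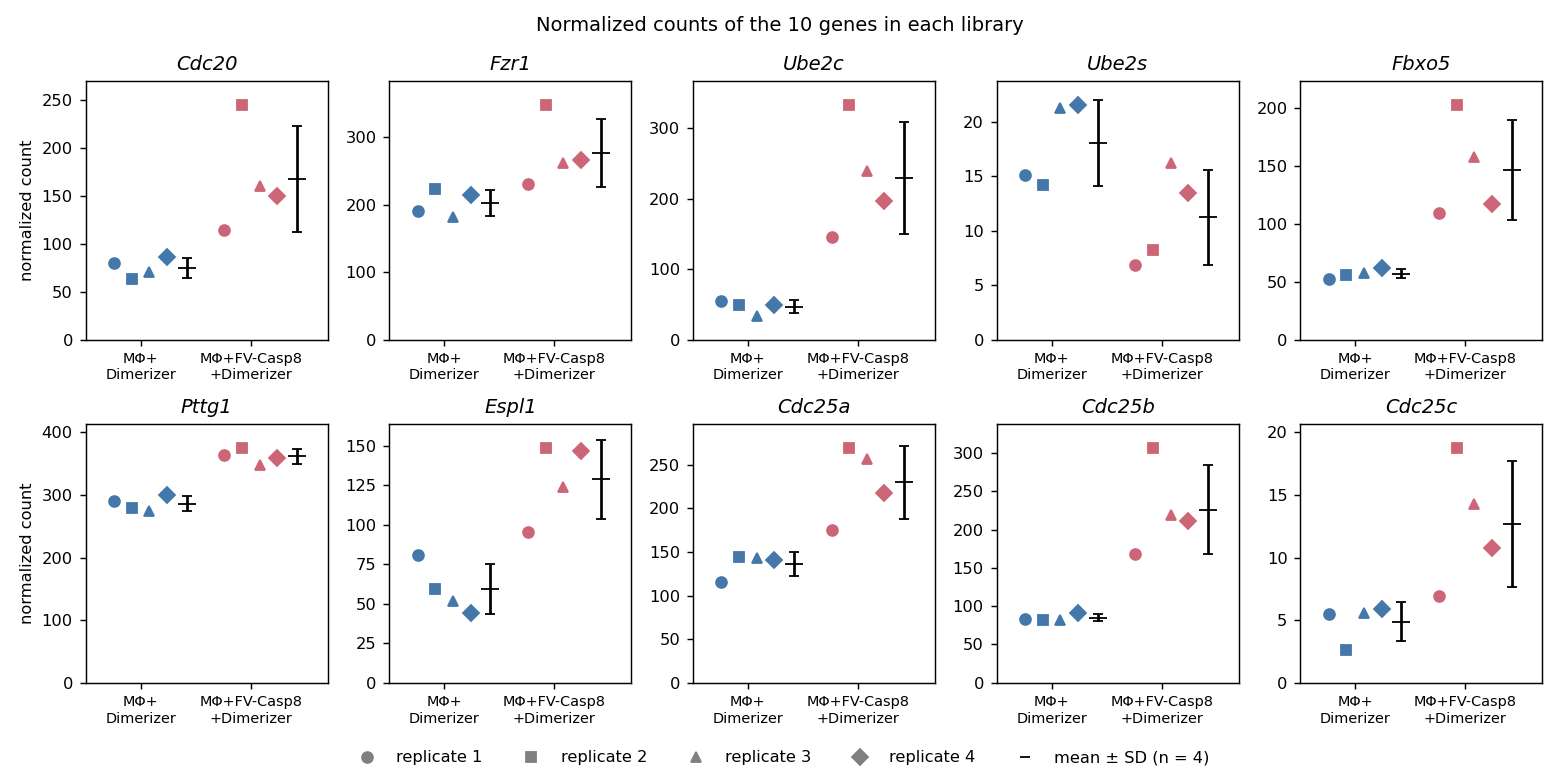
Normalized counts of the 10 genes in each library (points, shaped by replicate) for MΦ+Dimerizer and MΦ+FV-Casp8+Dimerizer, with mean ± SD of 4 libraries beside them and each vertical axis starting at 0. In 9 genes all libraries with apoptotic cells lie above all controls, and in Ube2s the groups overlap with lower values on the right.

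Securin, the product of Pttg1, holds separase inactive until the APC/C destroys it. Pttg1 (ENSMUSG00000020415, chr11:43420250-43426251, minus strand) had 289.9, 278.6, 274.1 and 300.7 normalized counts with dimerizer alone and 364.1, 375.5, 347.9 and 358.7 with apoptotic cells. The rise was small and even, since the highest library with apoptotic cells was only 1.08 times the lowest. The mean went from 286 ± 12 to 362 ± 11.5 (log2 fold change 0.34, SE 0.08, adjusted p = 0.00535). Espl1, which encodes separase (ENSMUSG00000058290, chr15:102296266-102324357, plus strand), had 81.1, 59.3, 51.9 and 44.2 normalized counts with dimerizer alone and 95.3, 148.7, 124.1 and 146.3 with apoptotic cells. Its groups lay apart, but the nearest libraries, both of replicate 1, differed by only 14.3 normalized counts. The mean rose from 59.1 ± 15.9 to 129 ± 24.8 (log2 fold change 1.12, SE 0.20, adjusted p = 0.000801).

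The transcript ratio of the inhibitor to the protease was lower with apoptotic cells in most libraries, but not in all. The log2 ratio of Pttg1 to Espl1 was 2.29 ± 0.38 with dimerizer alone and 1.51 ± 0.29 with apoptotic cells. The libraries overlapped, and the difference of -0.78 did not pass (exact permutation p = 0.0571, adjusted p = 0.0686).

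CDC25A acts mainly at the entry into S phase, and CDC25B and CDC25C at the entry into mitosis. Cdc25a (ENSMUSG00000032477, chr9:109875579-109893895, plus strand) had 115.4, 144.5, 143.5 and 140.5 normalized counts with dimerizer alone and 175.7, 269.6, 256.4 and 217.8 with apoptotic cells. Its mean rose from 136 ± 13.8 to 230 ± 42.3 (log2 fold change 0.74, SE 0.14, adjusted p = 0.00136). The groups did not overlap. Cdc25b (ENSMUSG00000027330, chr2:131186949-131198497, plus strand) had 83.8, 82.5, 82.4 and 91.4 normalized counts with dimerizer alone and 167.7, 307.1, 218.7 and 211.1 with apoptotic cells. The mean rose from 85.0 ± 4.28 to 226 ± 58.5 (log2 fold change 1.37, SE 0.16, adjusted p = 2.85e-05). Cdc25b was thus one of the most evenly expressed of the 10 genes in the controls and one of the most changed. Its start overlaps Spef1 on the other strand, which had 21.8 and 39.2 normalized counts.

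The 2 phosphatases rose by unequal amounts. The log2 ratio of Cdc25a to Cdc25b was 0.67 ± 0.16 with dimerizer alone and 0.04 ± 0.17 with apoptotic cells, a difference of -0.63 without overlap (exact permutation p = 0.0286, adjusted p = 0.0429).

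Cdc25c (ENSMUSG00000044201, chr18:34732993-34751533, minus strand) was barely expressed. It had 5.5, 2.6, 5.6 and 5.9 normalized counts with dimerizer alone and 6.9, 18.8, 14.2 and 10.8 with apoptotic cells, from 2 to 25 reads per library. The groups did not overlap, but the nearest libraries were 0.99 normalized counts apart. Gm3550, which lies over it on the other strand, had 21.5 and 24.5 normalized counts. The mean of Cdc25c, 8.78 over all libraries, is under the minimum of 10. In an alternative fit without that minimum, limma gave a log2 fold change of 1.18 (SE 0.44) and an adjusted p of 0.0874, and edgeR's quasi-likelihood test on the recovered reads gave 1.38 and an adjusted p of 0.0252. The edgeR fit without a minimum, which called 9.28% of 23008 genes higher, was added after the values had been seen. The change of Cdc25c was therefore not settled. The log2 ratio of Cdc25c to Cdc25b differed by -0.18 between the groups (exact permutation p = 0.457), and by -0.52 when 5 was added to the counts in place of 1 (adjusted p = 0.0343).

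**Figure D3:**
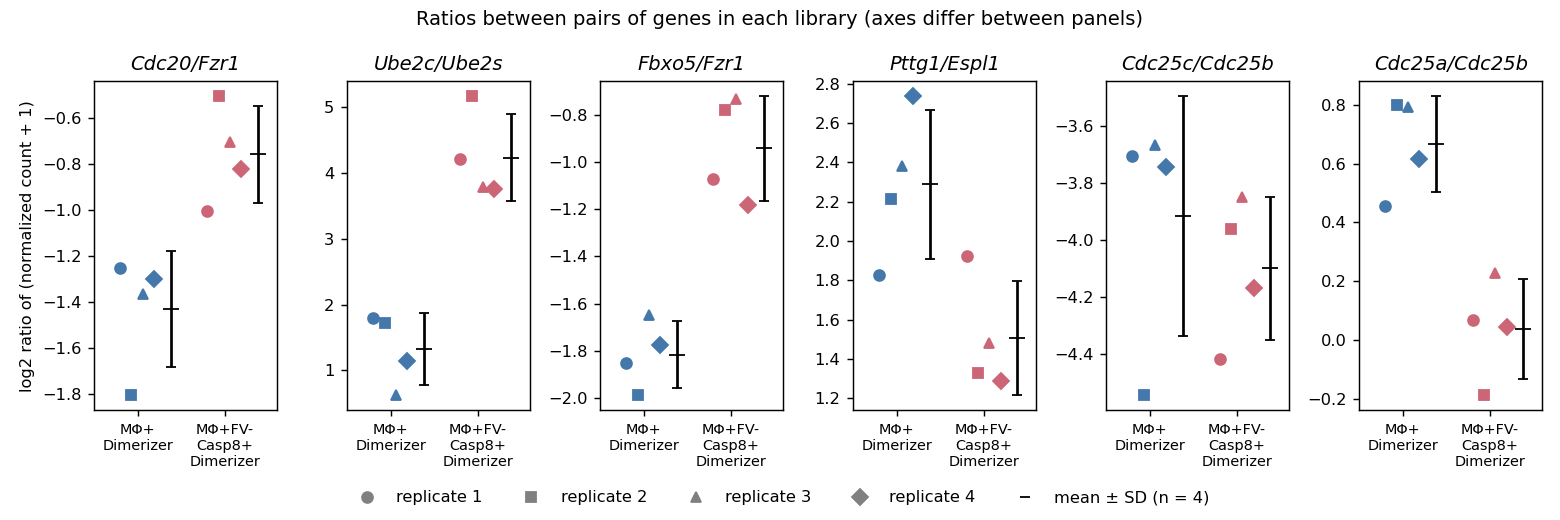
Log2 ratios between 6 pairs of the genes, from normalized count + 1, in each library of MΦ+Dimerizer and MΦ+FV-Casp8+Dimerizer, with mean ± SD (n = 4) and a separate axis for each pair. The groups do not overlap for Cdc20/Fzr1, Ube2c/Ube2s, Fbxo5/Fzr1 and Cdc25a/Cdc25b, and overlap for Pttg1/Espl1 and Cdc25c/Cdc25b.

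The libraries with apoptotic cells differed among themselves in one shared way. In 9 of 10 genes all their values lay above the controls (15.3% of genes tested, and 8.83% of the 23008 genes with a mean above 0). In all 9 of these the highest library was replicate 2, and in 8 of the 9 the lowest was replicate 1. The exception was Pttg1, lowest in replicate 3. Within the group, the highest library was 2.29 times the lowest for Ube2c, 2.14 times for Cdc20 and 1.51 times for Fzr1. Without replicate 2 the log2 fold changes were 2.03 for Ube2c, 0.91 for Cdc20, 1.21 for Cdc25b and 0.32 for Fzr1, and the 8 genes still passed (Fzr1 with an adjusted p of 0.047). The recovered reads with apoptotic cells were 10459860 in replicate 2, and 6954153, 7852334 and 11506556 in replicates 1, 3 and 4. The part of read depth in this order was not tested.

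**Figure D4:**
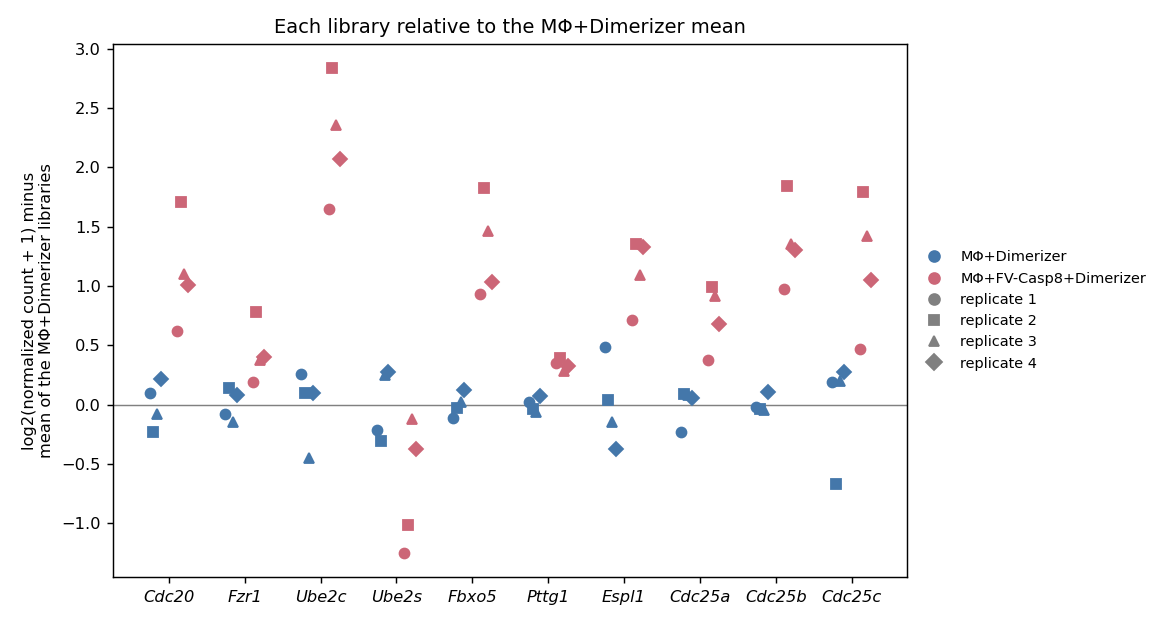
Log2(normalized count + 1) of each library minus the mean of the MΦ+Dimerizer libraries for the 10 genes, coloured by group and shaped by replicate. Replicate 2 with apoptotic cells (red squares) is the highest for every gene but Ube2s, and Pttg1 has the tightest group.

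The core subunits of the ligase were measured in the same unpaired fit. Of 14 subunits of the APC/C, all tested, 0 were called in either direction, beside 28.7% of all genes tested. Their log2 fold changes ran from -0.22 to 0.27 with a median of 0.06, and their 95% intervals lay between -0.63 and 0.52, so that a doubling of any of them is outside what these libraries allow. At an unadjusted p under 0.05, 2 of the 14 were higher, Cdc27 (0.27, adjusted p = 0.105) and Anapc5 (0.22, adjusted p = 0.0557), and none was lower. edgeR and DESeq2 at the same minimum called 0 in either direction, and edgeR without a minimum called 2 higher. A limma fit with the replicate number as a block called 3 higher (Cdc27, Anapc5 and Anapc11). Cdc27 passed without the replicate 1 library with apoptotic cells (0.35, adjusted p = 0.0458).

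Transcripts of the spindle checkpoint were higher for the most part, beside 15.0% of all genes tested. Of 8 genes for the spindle checkpoint, which keeps CDC20 from activating the APC/C until every chromosome is attached, 6 rose and none fell, with a median of 1.11. Bub1, a checkpoint kinase at kinetochores, rose from 28.2 ± 7.0 to 135 ± 48.1 normalized counts (log2 fold change 2.18, SE 0.26, adjusted p = 3.39e-05). Ttk, the kinase that starts the checkpoint signal, rose by 1.81 (SE 0.22). Bub3 rose least of the 6, by 0.35 (SE 0.07). Trip13, whose product helps to take the checkpoint complex apart, rose by 0.96 (SE 0.19). Mad1l1 (0.52, adjusted p = 0.0515) and Mad2l1bp (0.10, adjusted p = 0.55), which encodes a protein that silences the checkpoint, did not pass. Mad1l1 passed without the MΦ+Dimerizer library of replicate 3 (0.61, adjusted p = 0.0403) or the replicate 1 library with apoptotic cells (0.63, adjusted p = 0.0259).

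Transcripts of the listed proteins that the APC/C destroys rose almost without exception, in a list chosen with earlier results of these data known. Of 28 substrates, 27 were tested and 26 rose, with a median of 1.86, beside 15.0% higher of all genes tested. Tk1, the thymidine kinase of S phase cells, rose from 50.9 ± 8.70 to 352 ± 154 normalized counts (log2 fold change 2.67, SE 0.26, adjusted p = 8.77e-06). Ccnb2, a B-type cyclin, rose from 35.02 ± 5.98 to 192 ± 80.8 (2.34, SE 0.25). Skp2, which encodes an F-box protein that the APC/C with FZR1 degrades in G1, had a log2 fold change of 0.31 (SE 0.15, adjusted p = 0.132). Kifc1 was under the minimum.

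The partners of the CDC25 phosphatases showed the same direction. This list of 11 holds CDK1, CDK2, their cyclins and CKS proteins, and the kinases WEE1 and PKMYT1, which add the phosphates that CDC25 removes. Of its 9 genes tested, all 9 rose, with a median of 1.90, beside 15.0% higher of all genes tested. Cdk1 rose from 173 ± 13.4 to 677 ± 234 normalized counts (1.90, SE 0.18, adjusted p = 7.4e-06). Pkmyt1, the opponent of CDC25, rose too, by 1.5 (SE 0.18). Wee1 and Cks2 were under the minimum. This list shares its A- and B-type cyclins with the list of APC/C substrates, so the counts of both are not independent.

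The kinases that act on CDC25 proteins were split. Of 10 genes, 5 rose, 2 fell and 3 did not pass, with a median of 0.29. Over all genes tested 15.0% were higher and 13.7% lower, so the 2 that fell are near that share. Plk1, which activates CDC25C at mitotic entry, rose from 113 ± 22.3 to 443 ± 196 normalized counts (1.90, SE 0.23, adjusted p = 4.16e-05). Melk (1.76, SE 0.30), Chek1 (2.09, SE 0.43), Chek2 (0.54, SE 0.15) and Plk3 (0.49, SE 0.13) rose as well. CHEK1 and CHEK2 are the checkpoint kinases that inhibit CDC25 after DNA damage. The 2 genes that fell encode kinases with wide roles in macrophages. Pim1, a kinase induced by cytokines, went from 826 ± 112 to 565 ± 131 normalized counts (-0.57, SE 0.15, adjusted p = 0.0105), and Mapkapk2, a kinase downstream of p38, from 1171 ± 77.3 to 982 ± 57.0 (-0.25, SE 0.07, adjusted p = 0.0202). Chek2 did not pass without replicate 2 or 4 with apoptotic cells (adjusted p = 0.0541 and 0.0537), nor Mapkapk2 without replicate 4 of the controls or replicate 1 with apoptotic cells (0.0642 and 0.0543).

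In 4 further lists most genes did not pass. Of 7 genes for 14-3-3 proteins, which bind phosphorylated CDC25 and keep it from its targets, Ywhab rose (0.29, SE 0.07) and Ywhah fell (-0.29, SE 0.09), and the median was 0.00. These 2 of 7 stand beside 28.7% of all genes tested. Ywhah did not pass without control replicate 2 or replicate 4 with apoptotic cells (adjusted p = 0.0642 and 0.0732), Ywhae passed without the former (0.26, adjusted p = 0.038), and Sfn passed without replicate 1 with apoptotic cells (-0.93, adjusted p = 0.023). SCF ligases, some of which degrade CDC25A, EMI1 or WEE1, were listed under 7 names. Of these 6 were matched, since Skp1a and Skp1 name the same gene. Only Ccnf rose (1.71, SE 0.30), and the other 5, among them Btrc and Fbxw11, did not pass. Ccnf encodes cyclin F. A list of 7 genes covered the Greatwall kinase and the phosphatase PP2A-B55, which opposes CDK1 at mitotic exit. In it Mastl, which encodes the Greatwall kinase, rose from 13.4 ± 3.04 to 68.9 ± 31.0 normalized counts (2.21, SE 0.29, adjusted p = 9.48e-05). Ppp2r2a, a B55 subunit, passed narrowly (0.27, SE 0.09, adjusted p = 0.0425) and did not pass with edgeR or without control replicate 1 or 4 or replicate 1, 2 or 3 with apoptotic cells (adjusted p = 0.0599 to 0.128). Ensa, which encodes a substrate of the Greatwall kinase, passed without replicate 4 with apoptotic cells (-0.30, adjusted p = 0.0428). Of 10 genes for cohesin, the target of separase, and its protectors, Rad21, the subunit that separase cuts, rose by 0.41 (SE 0.08), and the cohesin protectors Sgo1 and Cdca5, themselves among the APC/C substrates, rose by 1.45 (SE 0.20) and 1.44 (SE 0.28), while 7 did not pass. Without control replicate 3 or replicate 2 with apoptotic cells, 5 of the 10 passed, all higher. In the SCF, Greatwall and cohesin lists 1 of 6, 2 of 7 and 3 of 10 were higher, beside 15.0% of all genes tested.

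**Figure D5:**
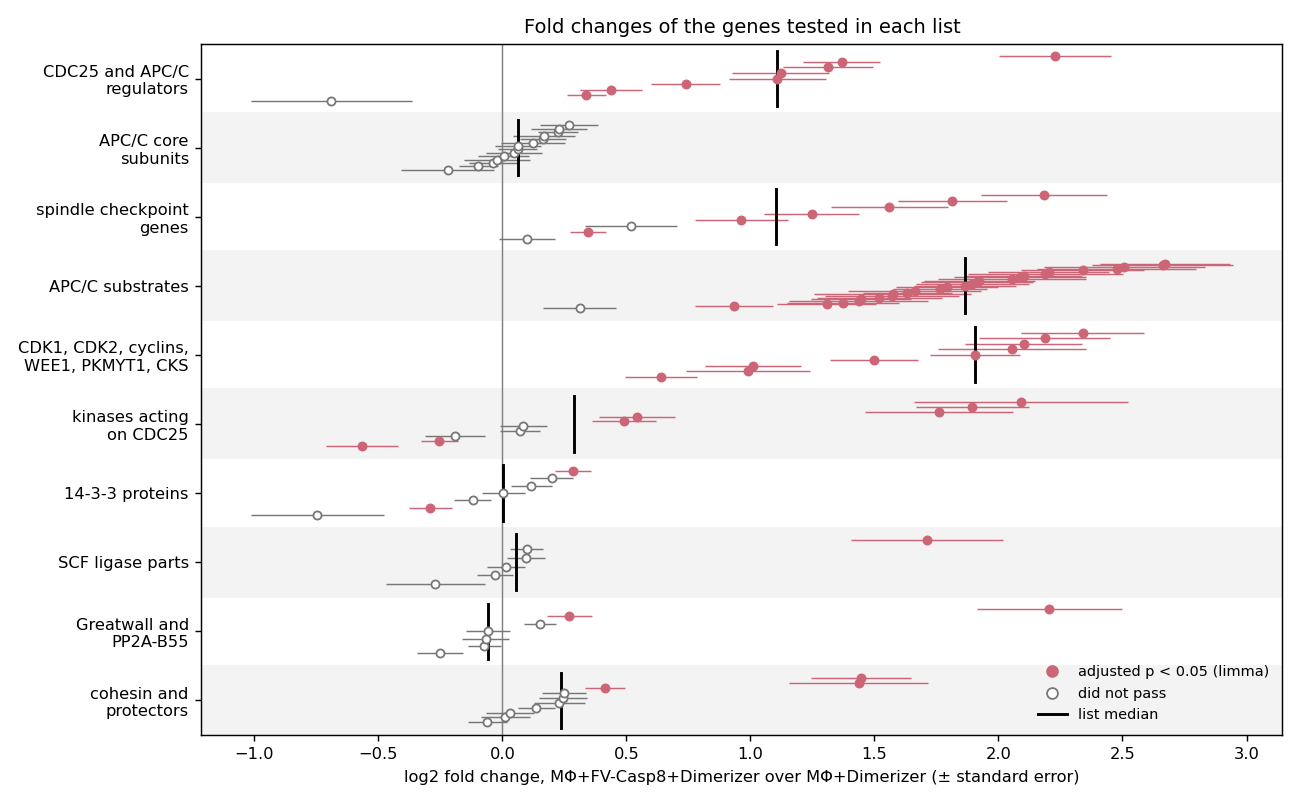
Log2 fold change (MΦ+FV-Casp8+Dimerizer over MΦ+Dimerizer) with its standard error for each gene tested in 10 lists, filled where the limma adjusted p was under 0.05, with the list median as a vertical bar. All 14 APC/C core subunits lie near 0 and none is filled, while 26 of 27 APC/C substrates are filled to the right of 0.

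Markers of other cells were measured beside these genes. All 10 macrophage markers were detected, with a summed level of 212616 to 221174 normalized counts in the controls and 247215 to 274860 with apoptotic cells, led by Lyz2 and C1qa, and 4 were higher and 2 lower. Fibroblast markers, led by Fn1 and Col1a2, summed to 20186 to 29522 in the controls and 10803 to 19125 with apoptotic cells. Fn1 alone averaged 16866 normalized counts in the controls and 11250 with apoptotic cells, so this sum mostly follows that gene. Of 10 fibroblast markers tested, 8 were lower and none higher. Of 3 mesothelial markers tested, all 3 were lower. B cell markers summed to 1561 to 8406 and 3961 to 9539, with 2 of 8 higher and 1 lower, and mast cell markers to 655 to 3891 and 564 to 1550, with 2 of 8 lower. Neutrophil markers, led by Mmp8 and S100a8, summed to 2053 to 5233 and 1020 to 1750, with 2 of 3 lower. Mmp8 alone averaged 2745 normalized counts in the controls and 813 with apoptotic cells. S100a9 averaged 2.75 and 7.72, Retnlg 0.59 and 2.75, and Ly6g was at 0 in every library. Dendritic cell markers summed to 428 to 655 and 359 to 984, with 1 of 5 higher and 3 lower. Of the red cell markers 2 of 2 were lower, and the 1 T and NK cell marker tested did not pass. Over all genes tested 15.0% were higher and 13.7% lower. The part of these cells in the values of the 10 genes was not tested.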

How the data were processed

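Peritoneal macrophages of 2 groups of 4 were profiled by QuantSeq 3′ sequencing with molecular identifiers. The submitters' processing notes name STAR, HTSeq, DESeq2 and GRCm38. An annotation release was not given in the sources used here. Per the labels and values, the deposited signal is a normalized count, a read number over the size factor of its library, as the authors made it. Within 0.001 reads, 100% of values came out whole, with 5904441 to 11506556 reads per library. Of the gene IDs, 99.1% matched GENCODE M21.

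Fold changes were fitted with limma 3.58.1 (R 4.3.3, intensity trend, no pairing) on log2(normalized count + 1) for genes with a mean of at least 10, with Benjamini-Hochberg adjustment over all of them. Members and lists (APC/C core subunits, spindle checkpoint, APC/C substrates, CDC25 partners, kinases on CDC25, 14-3-3, SCF, Greatwall and PP2A-B55, cohesin, cell type markers) were chosen with earlier results of these data known. Named were all members, from each list the 2 genes of smallest adjusted p in each direction and any gene alone in its direction, and the 2 most abundant markers. Further genes were named after their values were seen. Alternatives were a pseudocount of 0.5 or 5, fits with no filter or with a mean above 30, quantile and upper-quartile scaling, edgeR 4.0.16 and DESeq2 1.42.0 on recovered reads, a block for the replicate number, array weights, an adjusted p under 0.01 and each library left out. Reads of no 2 libraries of a group agreed within counting noise (chi-square over degrees of freedom, 4.05 to 14.5). P-values measure the spread between these libraries. On simulated data of 4 against 4 libraries with 11940 genes, limma recovered 51.7% of 1.5-fold, 82.2% of 2-fold and 97.0% of 4-fold changes. There 60, 73 and 66 genes had these changes, a far smaller share than the 28.7% called in the real data. The rates may therefore differ from those of the real fit. Of the last 300 transcript bases of each member, only those of Cdc20 aligned elsewhere over at least 200 bases at 90% identity, to the pseudogene Gm7856 (0 and 0.287 normalized counts). Python 3.11.15 with pandas 2.3.3 and matplotlib 3.10.9 made tables and figures.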

Additional observations from a re-analysis of the deposited data

Results flagged for a closer look

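Among 32 groups of 4 values of the 10 genes and their ratios, 4 held a library far from the others of its group (its gap to the nearest one, over the range, above Dixon's 95% value), where chance gives about 1 in 20. All 4 lay among the MΦ+Dimerizer libraries and concerned the CDC25 genes. Cdc25a was lowest in replicate 1, at 115 normalized counts. Cdc25b was highest in replicate 4, at 91.4 normalized counts. Cdc25c was lowest in replicate 2, at 2.58 normalized counts, which is 2 reads. The log2 ratio of Cdc25c to Cdc25b was lowest in the same library, at -4.54.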

How the results depend on the processing

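At an adjusted p under 0.01, 1104 genes were higher and 968 lower, in place of 1806 and 1646. Leaving out each library gave 1449 to 1698 genes higher and 1287 to 1598 lower, with 7 or 8 of the members higher and 0 lower. Ube2s did not pass under any alternative (log2 fold change -0.88 to -0.50). The fit with the replicate number as a block gave 2293 genes higher and 2118 lower, the same 8 members, and 3 core subunits higher (Cdc27, Anapc5 and Anapc11, adjusted p = 0.0377, 0.0239 and 0.0489). It also added Mad1l1, Ywhae, Smc3, Pds5a and Wapl to the genes higher and Sfn and Ensa to those lower (adjusted p = 0.00599 to 0.0403), and took no list gene away. Same-numbered libraries correlated at 0.09 to 0.34 after removal of the group means, and each of the 8 libraries correlated best with its own number. The column names share numbers between the groups too, but no label says what a number marks. Under the block all ratios that had passed gave an adjusted p of 0.1875, which 16 sign flips cannot pass. Without the MΦ+Dimerizer library of replicate 2, the differences of 0.55 (Cdc20/Fzr1), 3.05 (Ube2c/Ube2s), 0.82 (Fbxo5/Fzr1) and -0.58 (Cdc25a/Cdc25b) gave adjusted p of 0.0571 to 0.0686. In these ratios the groups still did not overlap, and each adjusted p depends on the p of all 6 ratios. No result reversed. Ube2s and Cdc25c rest on 6 to 23 and 2 to 25 reads per library.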
